A study of Homo sapiens with 3 samples.

Results

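The promoter labelled RBM4 lies on chromosome 11, plus strand, and is one of 13 human promoters that were cut with Cas9 and read by CRISPR-Cap in HEK293T, a line derived from human embryonic kidney. Its data were chosen by the target name in the deposited list, which gave 34151 capped 5′ ends of 131949 in all. Of these, 7509 had no deletion (unedited) and 26642 carried 1 (edited). Both kinds of RNA came from the same cells, which received Cas9 protein loaded with 1 guide RNA in 2 rounds of transfection. No mock-treated sample was analysed here, and the 2 libraries were pooled in the list, so nothing below has a replicate error. Intervals are 95% intervals of counting (Wilson for a share, Newcombe for a difference of shares). If ends are PCR reads and not single molecules, these intervals are too narrow.

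RNA polymerase II usually begins RNA at a purine that follows a pyrimidine, and most human promoters use several such bases within a short stretch. Which base is used depends on sequence upstream of the start and, in many promoters, on sequence downstream of it. CRISPR-Cap reads an RNA from its first base through the edited site, so each end gives the start and the allele together. The label does not match the annotation. The main start, position 66616630 on hg38, is the RefSeq start of RBM14, an RNA-binding coactivator found in nuclear paraspeckles, and GENCODE also starts the RBM14-RBM4 readthrough there. The annotated RBM4 gene, which encodes a splicing regulator, begins 21987 bases farther downstream, so these ends describe the RBM14 promoter. The first coding base lies 91 bases downstream of the main start, and the commonly deleted bases are annotated as 5′ untranslated; a 77-base deletion seen in 1 end runs past the first coding base.

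The starts and the edited bases are shown first because all results refer to them (hg38, plus strand, RefSeq and GENCODE sequence). The first line is chr11:66616612-66616641, with capitals at each start that held at least 2% of the unedited or of the matched edited ends. The other lines are chr11:66616641-66616664, with the deleted bases in capitals. They were selected to show deletions of different lengths over the same few bases. Positions after each name count bases downstream of the main start.
starts: gGttCtcggtcgccAgcCAttcctgaggag
1 base, 22: ggactgccggtCgttcggacgtct
3 bases, 20 to 22: ggactgccgGTCgttcggacgtct
4 bases, 21 to 24: ggactgccggTCGTtcggacgtct
4 bases, 18 to 21: ggactgcCGGTcgttcggacgtct
6 bases, 17 to 22: ggactgCCGGTCgttcggacgtct
8 bases, 18 to 25: ggactgcCGGTCGTTcggacgtct
8 bases, 22 to 29: ggactgccggtCGTTCGGAcgtct
11 bases, 20 to 30: ggactgccgGTCGTTCGGACgtct
16 bases, 11 to 26: GGACTGCCGGTCGTTCggacgtct
20 bases, 15 to 34: ggacTGCCGGTCGTTCGGACGTCT

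Unedited RNA began mostly at 1 base. The main start, an A after C, held 5668 of 7509 ends, or 75.5% (74.5 to 76.4%). The next was the A after C that lies 4 bases upstream (66616626), with 753 ends or 10.03% (9.37 to 10.7%), and GENCODE starts an RBM14 transcript and an RBM14-RBM4 transcript there too. The base just before the main start, a C, held 575 ends (7.66%). A small upstream cluster lay 13 to 17 bases upstream (66616613 to 66616617) and held 276 ends, 3.68% (3.27 to 4.13%). Its strongest base, 14 bases upstream (66616616), is a C after T and not a purine, and held 178 ends or 2.37%. In all, 86.4% of the unedited ends lay on a purine after a pyrimidine. No unedited end lay more than 11 bases downstream of the main start.

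Letters of a few promoter elements were looked for in the RefSeq window of this promoter (66616380 to 66616679), on both strands. GCCAT, the reverse complement of ATGGC, the core of a YY1-like site, overlaps the main start at 66616627 to 66616631. ATGGC on either strand occurs in 37.8% of 35116 promoter windows of this length. CCAAT, the box bound by the NFY factor, was found 3 times as ATTGG, with first bases 120, 81 and 48 bases upstream of the main start, and occurs in 34.6% of the windows. GGAA, the core of ETS sites, had 4 matches, all as TTCC, and occurs in 95.5% of the windows. The 1 match nearest the deleted bases, 66616631 to 66616634, was touched by the deletions of at most 20 edited ends. The longer YY1-like AAGATGGCG, the splice-site-like GGTAAG, the GC box GGGCGG, the longer ETS-like CCGGAAG, the CRE TGACGTCA, the TATA box TATAAA and a palindromic NRF1 consensus had no match. No match to a searched element lay within the commonly deleted bases, so deletions were not split by element.

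The edited ends carried 222 distinct deletions, most of which overlapped at a single site downstream of the starts. In the deposited placement, the base lost most often was a C at 66616652, 22 bases downstream of the main start. It was missing from 89.96% of the edited ends. Bases from 20 to 25 were each missing from over 75% of the edited ends, while base 10 was missing from 5.79% and base 40 from 0.995%. Deletions ranged from 1 to 77 bases, with a median over edited ends of 11 (quartiles 8 and 19). The 10 most frequent held 71.1% of the edited ends and 8 of them removed 8 or more bases. The most frequent, the loss of 8 bases from 66616648 to 66616655, held 12.9%. It was followed by a 20-base deletion (66616645 to 66616664, 12.2%) and a 16-base deletion (66616641 to 66616656, 9.58%).

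Most edited RNA came from deletions whose ends share sequence. Each of the 10 most frequent could be shifted downstream by 2 to 4 bases and still give the same allele, because the bases at its edges repeat. This was so for 84 of 222 distinct deletions (37.8%), which held 87.4% of the edited ends. Short repeats at deletion edges are also known from end joining through microhomology, and whether that pathway made these alleles was not tested. The deletion edges of these alleles are therefore ambiguous by a few bases, but their lengths are not. The most deleted base and the share that lacks it also depend on the placement.

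**Figure D1:**
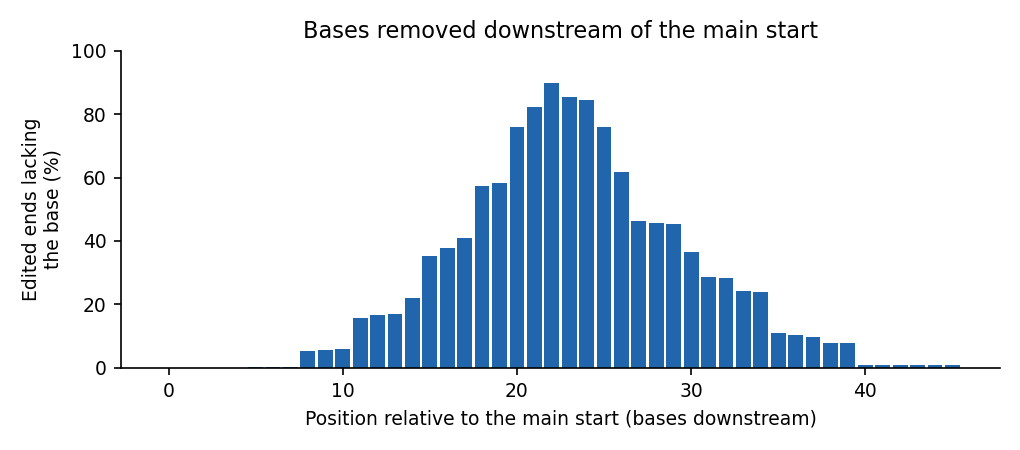
Share of the 26642 edited ends (y axis, %) whose allele lacks each base, by distance downstream of the main start (x axis, bases). In the deposited placement the profile peaks at base 22 (89.96%) and falls to 0.995% at base 40.

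Edited and unedited starts were compared after matching. An end was used only if at least 8 bases lay between it and its deletion, and it was set against unedited ends at positions that are also at least 8 bases upstream of that deletion. Positions with under 10 ends were left out, which left 26561 edited ends over 221 deletions. Matching took away little: 8 edited ends had fewer than 8 retained bases, of which 3 had 7, while 1159 had exactly 8.

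Pooled over all deletions, the main start held a smaller share of edited RNA, and upstream starts a larger one by about as many points. The main start went from 75.6% to 63.02%, a difference of −12.6 points (−13.7 to −11.5). The upstream cluster went from 3.74% to 15.4%, a difference of 11.7 points (11.04 to 12.3), or 4.12 times its unedited share. Within it the strongest start, 14 bases upstream, was higher by 7.47 points (6.96 to 7.96), and the start 17 bases upstream went from 0.786% to 2.88%. The start 4 bases upstream had nearly the same share on both kinds of RNA, 10.2% and 10.3%, with a difference of 0.161 points (−0.631 to 0.924). The C just before the main start went from 7.70% to 6.995%. Among minor starts downstream, the A 10 bases downstream (66616640) went from 0.102% to 0.508%.

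The starts within the cluster kept about the same proportions. The start 14 bases upstream made up 64.5% (58.7 to 69.9%) of the cluster's 276 unedited ends and 64.2% (62.7 to 65.6%) of its 4091 edited ends. The start 17 bases upstream made up 21.01% and 18.7% of it, the start 15 bases upstream 9.06% and 11.7%, and the start 13 bases upstream 5.07% and 5.04%. The intervals of each of these pairs overlapped, at the precision that 276 unedited ends give.

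**Figure D2:**
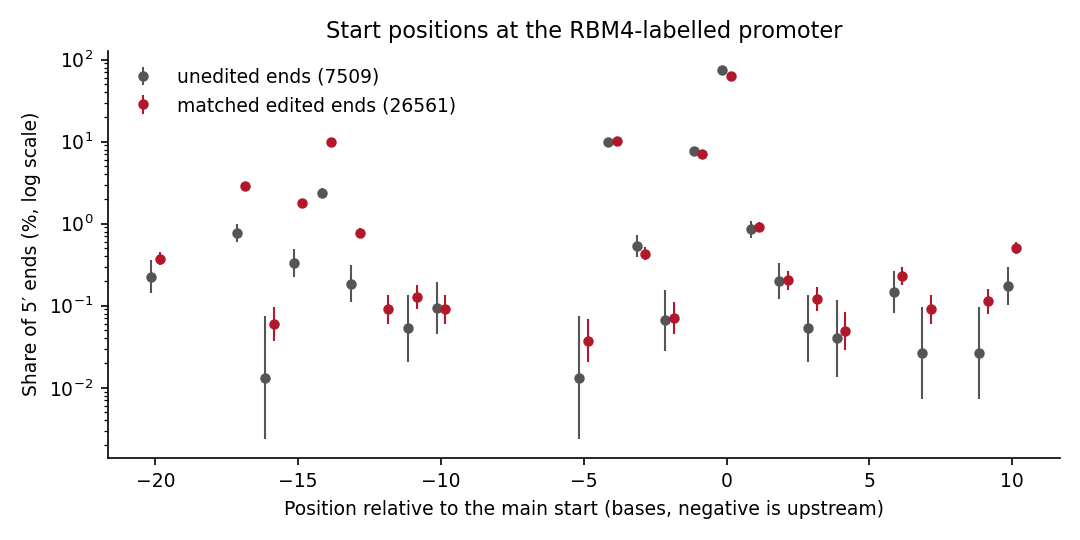
Share of ends (y axis, %, log scale) at each position relative to the main start (x axis, bases), for unedited and matched edited ends, with 95% Wilson intervals; positions with no end of a kind have no point for it. The starts 13 to 17 bases upstream lie 3.67 to 5.30 times higher on edited RNA where at least 10 unedited ends were seen, and those 4 bases upstream overlap.

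Single deletions did not behave alike. Of 28 deletions with at least 100 matched edited ends, 25 had a main-start share below their matched unedited share. In 22 the interval of the difference lay below 0, in 6 it spanned 0 and in 0 it lay above. Over all 13 targets, 57.1% of 98 such deletions had an interval below 0. At this promoter the main-start share ran from 48.8% to 78.5% with a median of 66.2% and an SD over deletions of 8.41 points. The intervals of the lowest (41.98 to 55.6%) and of the highest (73.01 to 83.2%) were well apart. The 3 lowest relative to unedited RNA were the losses of 66616644 to 66616651 (48.8%, 8 bases), 66616646 to 66616652 (49.6%, 7 bases) and 66616647 to 66616652 (49.6%, 6 bases). The 3 highest were the single-base losses of 66616654 (78.5%) and 66616652 (77.97%) and a 19-base deletion, 66616638 to 66616656 (76.9%).

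The main-start share also differed between deletion lengths, though not as a steady trend from shorter to longer. With 1 base deleted, the main start held 76.5% (74.4 to 78.6%) of 1535 ends, a difference from unedited of 0.872 points (−1.51 to 3.15). With 2 bases it held 72.5% of 269 ends. It was lower with 3 or 4 bases, at 57.6% (55.8 to 59.3%) of 3037 ends. With 5 bases it was 64.4% (58.5 to 69.8%) of 275 ends, and with 6 to 9 bases, 54.5% (53.3 to 55.7%) of 6743 ends. Pooled over ends, it was 60.3% at 10 to 12 bases, 63.3% at 13 to 16, 63.7% at 17 or 18 (157 ends), 70.5% (69.5 to 71.5%) at 19 or 20, on 7411 ends, and 65.1% (60.8 to 69.2%) at 21 or more. Within these ranges it was 36.7% at 14 bases (90 ends). Among longer deletions it was 70.9% at 24 bases (254 ends), 75.3% at 27 bases (89 ends) and 48.2% for a 35-base deletion (83 ends). The matched unedited share was 72.4% at 17 or 18 bases, 73.5% at 21 or more and 71.4% at 27. Those sets include deletions that begin too close to the main start for it to be in range. A few frequent alleles carry the pooled values. Counting each deletion with at least 30 ends once, the median share was 75.995% at 1 base, 57.3% at 3 or 4, 66.9% at 5, 58.8% at 6 to 9, 51.8% at 10 to 12, 61.6% at 13 to 16 and 68.5% at 19 or 20. The median was 74.5% at 2 bases and, over 3 deletions, 70.9% at 21 or more. By that count the lowest class was 10 to 12 bases, not 6 to 9. By either count, deletions of 19 or 20 bases lay closer to the unedited share than those of 3 or 4.

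The start that gained differed between short and middle lengths. With deletions of 3 or 4 bases, the A 4 bases upstream of the main start held 26.4% (24.8 to 27.97%), which is 2.62 times its matched unedited share, while the cluster held 5.76%. With deletions of 6 to 9 bases the 2 upstream sites changed places. The cluster held 26.3% (25.2 to 27.3%), 7.13 times its unedited share, while the A 4 bases upstream held 8.097% (7.47 to 8.77%), below its unedited 10.1% with a difference of −1.96 points (−2.91 to −1.02). The difference from unedited RNA was 16.3 points (14.6 to 18.05) at the A on the first set of alleles and 22.6 points (21.5 to 23.7) at the cluster on the second. In the pooled comparison the first was not visible, since each class of 6 or more bases had less than 10% there. A start 4 bases upstream on an allele that lacks 4 bases lies as many bases from the sequence beyond the deletion as the main start does on unedited RNA; whether this bears on its use was not tested. These classes of length and the cluster were chosen after the profiles had been seen.

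The change from 1 pattern to the other fell within a few bases of length. The share 4 bases upstream was 11.5% at 1 base, 13.8% at 2, 25.5% at 3, 26.98% at 4, 10.5% at 5 and 8.07% at 6. Among lengths with at least 50 ends, 3 and 4 were the only ones with an interval wholly above 20%. Over the same lengths the cluster held 1.24%, 6.32%, 6.46%, 5.25%, 17.8% and 28.7%, and at 7 bases it reached 30.8% (27.1 to 34.8%). From 8 to 13 bases the cluster lay between 19.5% and 26.1%. At 14 bases it held 46.7% (36.7 to 56.9%), but on 90 ends, of which 33 came from 1 deletion with 69.7%. It was 21.2% at 15 bases, 16.6% at 16, 19.2% at 17 (99 ends), 15.5% at 18 (58 ends), 6.59% at 19 and 10.2% at 20. At 24 bases the cluster held 11.4%, at 27 bases 8.99% (89 ends) and on the 35-base deletion 22.9% (15.2 to 33.01%). With 1 base deleted the cluster was below its unedited share, with a difference of −2.45 points (−3.08 to −1.65).

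**Figure D3:**
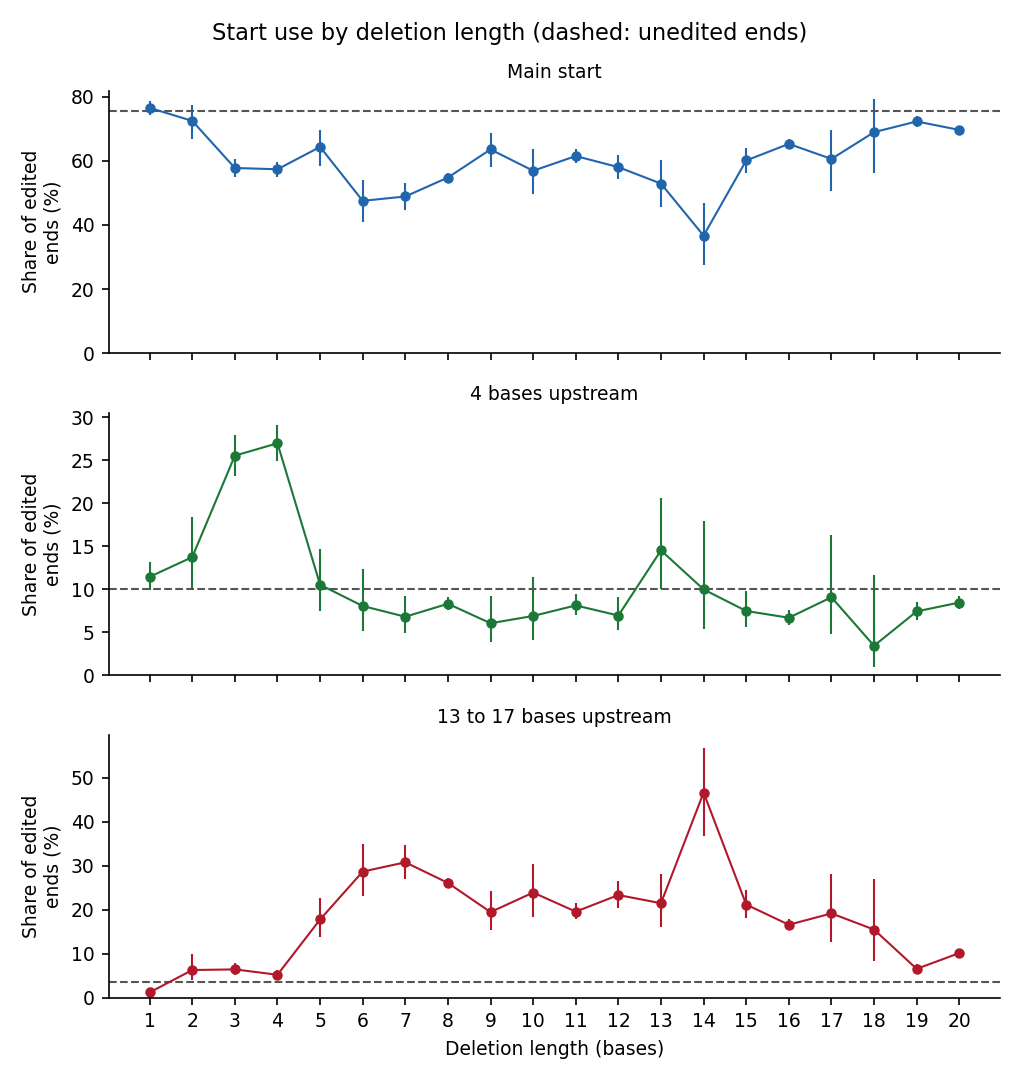
Share of matched edited ends (y axes, %) at the main start, 4 bases upstream and 13 to 17 bases upstream, by deletion length (x axis, 1 to 20 bases, each with at least 50 ends), with 95% Wilson intervals and the unedited share dashed. The share 4 bases upstream peaks at 3 and 4 bases (25.5% and 26.98%), and the cluster stands above 17% at every length from 5 to 15 bases and again at 17.

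The length pattern was seen in separate deletions and not in 1 allele alone. There were 6 deletions of 3 or 4 bases with at least 30 matched ends. Their shares 4 bases upstream ran from 18.8% to 27.4%, and all 6 exceeded the unedited share. The loss of TCGT at 66616651 to 66616654 gave 26.9% (24.7 to 29.3%, 1452 ends). The loss of CGGT at 66616648 to 66616651 gave 27.4% (285 ends). Both can be shifted along repeated bases, so how many bases they share depends on the placement. The 3-base loss of GTC at 66616650 to 66616652 gave 26.5% (23.998 to 29.2%, 1105 ends). Of the 56 deletions of other lengths at this depth, 1 exceeded 20%, a 13-base deletion with 22.2%.

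Deletions of 6 to 9 bases also showed their pattern singly. In 13 of 13 with at least 30 ends the cluster exceeded its unedited share, with a range of 7.69% to 32% and a median of 23.5%. That count is not particular to this class, since every such deletion of 5 or more bases exceeded it. At 10 to 12 bases it was 11 of 11, with a median of 26.1%, and at 13 to 16 bases 13 of 13, with 15.4%. At 1 base it was 0 of 4, at 2 bases 3 of 4 and at 3 or 4 bases 5 of 6. The most frequent deletion of all, the loss of CGGTCGTT at 66616648 to 66616655, had 28.7% of its 3431 ends in the cluster and 7.37% at 4 bases upstream. A second 8-base deletion, placed at 66616652 to 66616659, had 21.8% of its 1677 ends in the cluster. It had 11.2% (9.73 to 12.7%) at 4 bases upstream. Both 8-base deletions can be shifted by 3 bases, and the alleles they leave are nearly the same sequence. Leaving out the most frequent deletion of this class moved the class's cluster gain from 22.6 to 20.1 points.

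With deletions of 19 or 20 bases the cluster held 9.04%, 2.39 times its unedited share, a difference of 5.26 points (4.48 to 6.05). In all 5 such deletions with at least 30 ends the cluster lay above its unedited share, at 4.29% to 10.9%. The interval of the lowest (3.32 to 5.53%) spanned the unedited 3.68%. The 20-base deletion of 66616645 to 66616664 had its main start at 70.2% (68.6 to 71.8%) of 3256 ends, and the other frequent one, 66616650 to 66616669, at 68.5% of 1754 ends. Each of these 2 deletions can be shifted by 4 bases, and the alleles they leave are nearly the same sequence. Their main-start intervals overlapped. At 4 bases upstream their shares were 7.31% (6.46 to 8.25%) and 10.7% (9.36 to 12.3%), with intervals that did not overlap. As placed, the 19-base deletion from 66616638 begins only 8 bases downstream of the main start. Its main start had 76.9% of the matched ends against 76.8% in matched unedited RNA. By contrast, the 16-base deletion of 66616641 to 66616656 had 65.4% (63.6 to 67.3%) at the main start and 17.01% in the cluster. As placed, both deletions end at the same base, but they can be shifted downstream by 3 and 4 bases respectively.

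**Figure D4:**
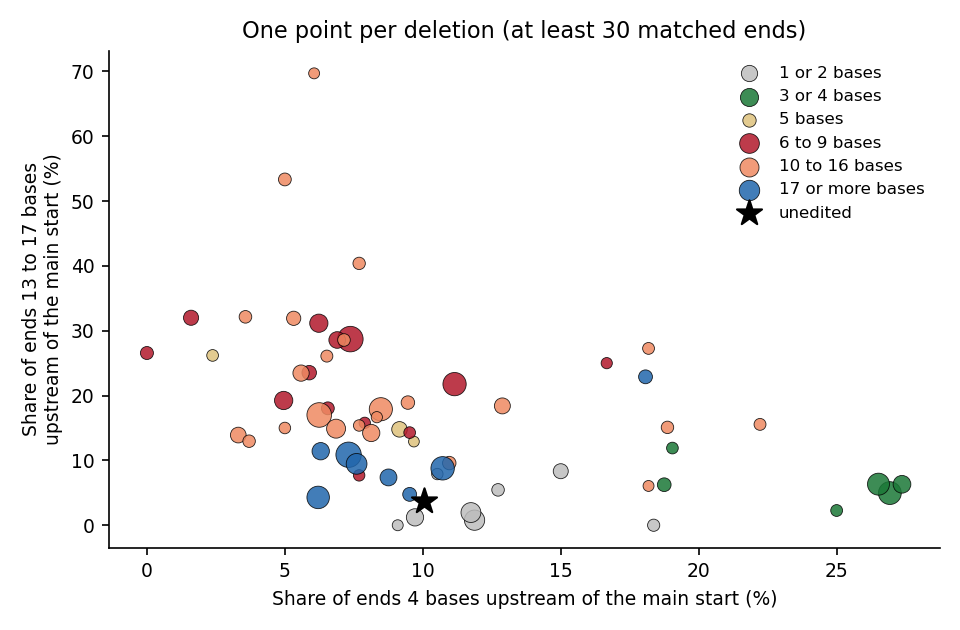
Each point is 1 of 62 deletions with at least 30 matched ends; the x axis is the share of its ends 4 bases upstream of the main start (%), the y axis the share 13 to 17 bases upstream (%), larger points have more ends, and the star marks unedited RNA. Deletions of 3 or 4 bases lie to the right (18.8 to 27.4%), and those of 6 to 9 bases lie above the star.

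Which side of the most deleted base was lost also went with the size of the difference. Deletions were taken as upstream-sided if their last base was 21 or 22 bases downstream of the main start, and as downstream-sided if their first base was 22 to 24 bases downstream. At lengths of 5 to 9 bases the main start held 52.3% (48.9 to 55.7%) of 837 ends with upstream-sided deletions and 57.5% (55.3 to 59.6%) of 1954 ends with downstream-sided ones. Of those 1954 ends, 1677 came from 1 deletion, 66616652 to 66616659 (57.3%). The deletion of 66616648 to 66616655, which leaves nearly the same sequence, counted on neither side and had 53.1%. At 10 to 16 bases the main start held 35.9% (29.5 to 42.8%) of 195 upstream-sided ends and 60.96% (57.3 to 64.5%) of 712 downstream-sided ends. The cluster held 49.7% (42.8 to 56.7%) and 17.7% (15.1 to 20.7%) of the ends in these 2 sets. Over 5 to 16 bases together the main-start difference between sides was −9.18 points (−12.7 to −5.60). The lowest main-start share of any deletion with at least 30 ends, 21.2%, was that of an upstream-sided 14-base deletion, and its cluster share was 69.7%. At a given length, upstream-sided deletions leave fewer bases between start and deletion than downstream-sided ones, and that distance was not held fixed. Sides follow the deposited placement. With deletions shifted to their highest coordinate and sorted into sides anew, the difference was −10.6 points. That value compares partly other deletions (3134 ends over 41 deletions, against 3698 over 46), so it is not the same contrast measured again. With 3 or 4 bases the start 4 bases upstream was above its unedited share on both sides, at 26.5% (24.2 to 28.8%) and 20.97% (14.7 to 28.95%, 124 ends).

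**Figure D5:**
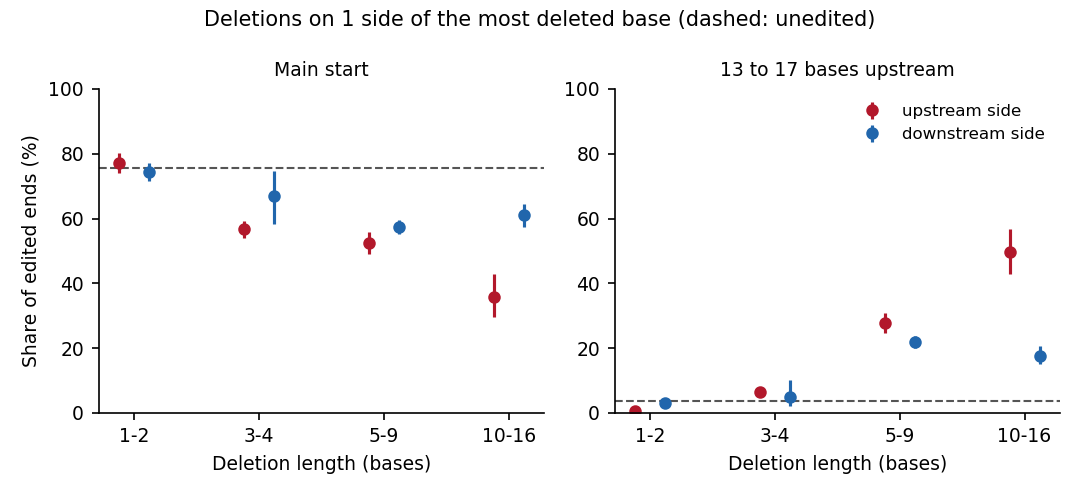
Share of matched edited ends (y axes, %) at the main start and 13 to 17 bases upstream for deletions that lie on the upstream or the downstream side of the most deleted base, by length class (x axis, bases), with 95% Wilson intervals and the unedited share dashed. The sides are farthest apart at 10 to 16 bases, where the main start holds 35.9% and 60.96%.

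Over all deletions the mean start lay 1.85 bases (1.73 to 1.96) farther upstream on edited RNA. By length the shift was −0.0884 bases (−0.286 to 0.109) with 1 or 2 bases deleted, 1.17 with 3 or 4, 3.34 (3.14 to 3.54) with 5 to 9, 2.71 with 10 to 14, 1.45 with 15 to 19 and 0.938 (0.771 to 1.11) with 20 or more. The odds that an end lay 8 to 19 bases upstream of its deletion, as against 20 or more, were 0.346 times those of matched unedited ends (0.330 to 0.362). The main start counts as near for every deletion whose first base lies 8 to 19 bases downstream of it, so this ratio and the main-start difference rest in part on the same ends.

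The same classes were set beside those of 3 other plus-strand promoters with at least 100 edited and 100 unedited ends. The main start's edited share, as a ratio to its matched unedited share, was 1.004 at 1 or 2 bases, 0.761 at 3 or 4, 0.725 at 5 to 9, 0.782 at 10 to 14, 0.891 at 15 to 19 and 0.917 at 20 or more at the RBM4-labelled promoter. At TMED9, which encodes a cargo receptor of the secretory pathway, it was 0.815, 0.673, 0.522, 0.587, 0.637 and 0.681 (60 ends) in the same 6 classes. At LETMD1, which encodes a mitochondrial membrane protein, it was 1.08, 1.12 (103 ends), 0.479, 0.554 and 0.727 (92 ends) in the first 5. At NDUFV3, a complex I subunit gene, it was 0.541, 0.454, 0.243, 0.381, 0.385 and 0.242. Pooled over ends, the ratio in all 4 promoters was higher at 10 to 14 and at 15 to 19 bases than at 5 to 9. At the RBM4-labelled promoter a few frequent alleles carry this. There the median main-start share over single deletions was 58.8% at 6 to 9 bases and 51.8% at 10 to 12. Some ratios rest on few ends at the main start, which many deletions begin too close to. The matched unedited main-start share was 19.9% at TMED9 at 15 to 19 bases and 22.8% at LETMD1 at 10 to 14. These promoters differ in how far the cut lies from their main start and in their upstream starts, and whether the profiles differ beyond error was not tested.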

How the data were processed

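Capped 5′ ends were measured in HEK293T by CRISPR-Cap. Per the labels' protocols, decapped RNA was ligated to an oligonucleotide ending in 8 random bases and reverse transcribed with gene-specific primers. The authors deposited 1 line per 5′ end (class, position, deletion edges and length, target), with no normalization. Per the submitters' processing notes STAR and hg38 were used; of versions, deletion calling and any collapsing by the random bases, the sources used here say nothing. The list has no library column, so the 2 libraries are pooled and no test across samples was possible; the planned values carry counting intervals only. The 6 files of the reporter assay hold other promoters and were not used.

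Positions were raised by 1, because 86.4% of unedited ends then lay on a purine after a pyrimidine, against 1.52% otherwise. The first deleted base is the deposited start plus 1. Deposited placement was at the lowest coordinate for most deletions: 9 of 222 could be moved lower. Bases came from RefSeq's promoter table and GENCODE release 29 (98 shared bases, 0 mismatches).

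Matching is described with the results. Shares, Wilson and Newcombe intervals and the Mantel-Haenszel odds ratio used Python 3.11.15, pandas 2.3.3 and statsmodels 0.14.6. The main-start difference and the upstream shift were checked on simulated data with known values, but the intervals and the odds ratio were not. Depth was 7509 unedited and 26642 edited ends. Named starts held at least 2% of ends of a kind; named deletions were the 10 most frequent and the 3 lowest and 3 highest by main-start ratio among those with at least 100 matched ends. Other deletions, including those printed as sequence, were singled out after their values were seen. The main start was chosen as the most used one on the unedited ends that are also compared. The target, the measures and these lists were chosen with earlier results of these data known. Alternatives changed the retained bases, matching, weighting, filters, deletion placement and the most frequent deletion.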

Additional observations from a re-analysis of the deposited data

How the results depend on the processing

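Of 97 alternative values, 75 lay within the interval of the value reported (counts of deletions: within 1.5 times), and 22 lay outside. Some of the 75 could not differ from the value reported. For example, the most frequent deletion, of 8 bases, is in neither class of the ratio of 10 or more against 1 or 2 bases. None of the differences whose interval excludes 0 changed sign; the main-start difference on single-base deletions, whose interval spans 0, went from 0.872 to −0.145 points without its most frequent deletion. The alternatives for single length classes and sides were chosen after seeing the data. The pooled main-start difference became −9.08 points with at least 20 retained bases (deletions that begin closer to the main start then have no main start in range and enter as 0), −15.9 with deletions weighted equally and −11.2 without the most frequent deletion. The upstream shift became 2.08 bases with at least 12 retained bases, 2.65 with equal weights, 1.99 with deletions of at least 3 bases and 1.58 without the most frequent deletion. The near to far odds ratio became 0.521 with deletions moved to their highest coordinate and 0.371 without the most frequent deletion; with 20 retained bases it could not be computed. The gain 14 bases upstream became 8.33 points with at least 12 retained bases, 8.71 with 20, 10.3 with equal weights, 8.10 with deletions of at least 3 bases and 6.25 without the most frequent deletion. The number of well-covered deletions with a lower main-start share was 9 of the 11 that keep the main start in range with 20 retained bases, and 39 of 43 when 50 ends sufficed, against 25 of 28. The log2 ratio of main-start retention with deletions of 10 or more against 1 or 2 bases was −0.19; it became −0.36 with equal weights, and −0.038 with 5 or more against 1 to 4 bases, classes that join the 3- and 4-base deletions to the single-base ones. The gain 4 bases upstream on deletions of 3 or 4 bases became 11.5 points with equal weights, and the cluster's gain on deletions of 6 to 9 bases became 32.2 points with 20 retained bases and 20.1 without the most frequent deletion. The difference between sides became −14.4 points with equal weights and could not be measured with 20 retained bases, where upstream-sided deletions have no main start in range. The edited share of ends, 78.01%, became 77.8% with only deletions of at least 10 ends, which is within its interval. Its other alternative kept every end and so could not change it. No paired analysis was possible because the deposited list does not separate the 2 libraries; for the same reason no library could be left out. Depth limits the classes of 2, 5, 6, 10, 13, 14, 17 and 18 bases, each on under 280 ends, and the unedited cluster, on 276 ends.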
